A study of Homo sapiens with 12 samples.

Results

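In 2 B-cell lymphoma lines, 74 genes were expressed in untreated cells of both lines and stood at no more than 0.5 of their vehicle level after 12 h of chidamide in both. They were chosen from these counts by a fixed rule: a mean of at least 10 CPM (counts per 1e6, the gene's count scaled by the sum of all counts in its library) in both vehicle groups, and a ratio of the chidamide mean to the vehicle mean of 0.5 or less in each line. Of 26364 genes in the table, 8160 reached the vehicle level in both lines, so the 74 were 0.907% of them. By the same rule 158 genes (1.94%) were halved under the JeKo-1 label and 261 (3.2%) in Granta-519, and the 74 made up 46.8% of the first list and 28.4% of the second. At the same vehicle level 80 genes were at least doubled in both lines.

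The cells were labelled JeKo-1 and Granta-519, which are established lines of mantle cell lymphoma, a cancer of B cells whose usual translocation switches on the cyclin gene CCND1. Each line was grown in serum-supplemented medium and given 4 µM chidamide (spelled Chidmide in the sample labels), or the vehicle alone, for 12 h. The 4 groups were the JeKo-1 label with chidamide, the JeKo-1 label with vehicle, Granta-519 with chidamide and Granta-519 with vehicle, with 3 libraries of polyadenylated RNA each, 12 in all. The series concerns the drug's action on MYC in lymphomas with high MYC and BCL2.

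Chidamide is a benzamide that inhibits class I histone deacetylases and HDAC10. Deacetylases take acetyl groups off histone tails and are found at active genes as well as silent ones, so inhibitors of this class both raise and lower many transcripts. A level measured after some hours also depends on how fast the existing RNA decays. The oncoprotein MYC, with its partner MAX, and the lysosomal regulators TFEB and TFE3 are transcription factors that all recognise the palindrome CACGTG, called the E-box. The version TCACGTGA is known as the CLEAR element of lysosomal genes.

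Libraries held 12873642 to 16592694 counts, and no gene among the 74 had fewer than 47 counts in any library or more than 7836. The 8 B-cell markers summed to 3020 to 3070 CPM in chidamide and 2930 to 3100 CPM in vehicle libraries under the JeKo-1 label, and to 4470 to 4630 CPM and 3730 to 3820 CPM in Granta-519. The libraries labelled JeKo-1 went against that label in SOX11, a marker of mantle cell lymphoma, with 0 counts in both groups, and in CCND1, with 44 counts over the 3 chidamide and 5 over the 3 vehicle libraries. Granta-519 had 1784 ± 102 CPM of CCND1 with chidamide and 2168 ± 48.0 CPM with vehicle (SD, n = 3). Results under the JeKo-1 label rest on those libraries, so each is set beside Granta-519 alone. Of the lists that mark other cells, 8 myeloid markers summed to 37.2 to 38.3 CPM in chidamide and 1.79 to 3.76 CPM in vehicle libraries under the JeKo-1 label, and to 98.4 to 105 CPM and 26.9 to 27.2 CPM in Granta-519. The 10 markers of T and natural killer cells stayed at or under 8.68 CPM in every group, and the 6 of erythroid cells and megakaryocytes at or under 0.91 CPM, with PPBP and PF4 at 0 in all libraries. The 9 epithelial and stromal markers summed to 57.4 to 61.8 CPM and 46.5 to 48.9 CPM under the JeKo-1 label, and to 489 to 499 CPM and 572 to 598 CPM in Granta-519. What part these markers have in the falls was not tested, and in RNA from whole cultures fewer cells of a type and less RNA per cell cannot be told apart. Separate cultures are not stated for the replicates, so a p-value here sets differences against a spread between libraries that may be technical.

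CACGTG was found in promoters of 14 of the genes, 8 placed with the lysosome and endosome and 6 elsewhere. The sequences shown here are promoters of 5 of those 14, 4 lysosomal and 1 of ribosome assembly, with CACGTG in capitals. Each runs 5′ to 3′ from 250 bases before to 50 bases after the gene's start, from RefSeq on GRCh38.p14. The window of CTSA lies at chr20:45891085-45891384, plus strand. CTSD lies at chr11:1763878-1764177, minus strand. MFSD1 lies at chr3:158801804-158802103, plus strand. SPNS1 lies at chr16:28974528-28974827, plus strand. TSR3 lies at chr16:1351829-1352128, minus strand.
CTSA: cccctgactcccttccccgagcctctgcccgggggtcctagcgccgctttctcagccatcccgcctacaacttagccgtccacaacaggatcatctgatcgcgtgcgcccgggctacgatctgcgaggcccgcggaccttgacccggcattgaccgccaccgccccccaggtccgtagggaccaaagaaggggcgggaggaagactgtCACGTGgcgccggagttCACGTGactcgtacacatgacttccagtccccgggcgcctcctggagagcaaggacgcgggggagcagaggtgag
CTSD: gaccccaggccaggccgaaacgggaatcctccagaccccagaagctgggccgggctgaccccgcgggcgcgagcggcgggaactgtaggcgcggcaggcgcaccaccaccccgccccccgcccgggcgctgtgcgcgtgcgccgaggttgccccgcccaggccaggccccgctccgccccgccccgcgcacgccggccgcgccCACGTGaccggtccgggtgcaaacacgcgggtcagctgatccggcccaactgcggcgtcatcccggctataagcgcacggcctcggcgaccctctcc
MFSD1: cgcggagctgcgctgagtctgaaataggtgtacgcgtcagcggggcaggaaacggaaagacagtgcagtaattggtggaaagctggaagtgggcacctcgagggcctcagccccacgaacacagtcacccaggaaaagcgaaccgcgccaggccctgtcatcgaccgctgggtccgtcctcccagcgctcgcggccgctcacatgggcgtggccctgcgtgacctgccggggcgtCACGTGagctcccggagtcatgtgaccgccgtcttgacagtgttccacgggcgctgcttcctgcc
SPNS1: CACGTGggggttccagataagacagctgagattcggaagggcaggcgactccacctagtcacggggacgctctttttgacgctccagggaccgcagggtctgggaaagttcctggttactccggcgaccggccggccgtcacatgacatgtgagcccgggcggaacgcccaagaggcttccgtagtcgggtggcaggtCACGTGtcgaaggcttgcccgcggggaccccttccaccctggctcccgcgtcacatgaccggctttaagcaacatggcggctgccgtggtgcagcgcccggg
TSR3: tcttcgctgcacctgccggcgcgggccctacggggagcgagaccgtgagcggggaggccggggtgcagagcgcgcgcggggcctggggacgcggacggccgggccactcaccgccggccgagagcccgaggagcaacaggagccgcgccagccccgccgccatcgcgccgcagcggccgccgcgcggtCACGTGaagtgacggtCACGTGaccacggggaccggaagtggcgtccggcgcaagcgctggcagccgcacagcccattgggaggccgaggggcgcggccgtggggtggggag

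CTSA, SPNS1 and TSR3 each hold the palindrome 2 times in this window, and CTSD and MFSD1 hold it 1 time. Promoter windows were found for 55 of the 74 genes, 74.3%. This is under 80%, so a comparison of shares over the 74 is void, and the counts only describe the 55. CACGTG, which reads the same on both strands, was in 14 of the 55: ALG1, COMMD9, CTSA, CTSD, DPH2, FAM21C, ISOC2, MFSD1, SLC38A5, SLC38A7, SPNS1, TSR3, VAC14 and WDR90. It was in 7.43% of all 27305 windows of this length and in 11.3% of those of the other expressed genes. TCACGTGA, which contains it, was in 5 of the 55 (ALG1, CTSA, FAM21C, MFSD1 and TSR3), against 1.04% of all windows and 2.3% of those of other expressed genes. A match of letters is a description of this window and does not show that a factor binds there.

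Of the 10 genes placed with the lysosome and endosome, 9 had a window and 8 of those held CACGTG. Among the other 64 genes, 6 of 46 windows held it. Among the expressed genes of a wider list for lysosome, autophagy and vesicle traffic that were not halved in both lines, 19 of 86 windows held it, and among those of a MYC target list, 27 of 61. The placing of genes by role was made with their falls and these matches known, so the counts carry no test. For the letters of other factors, searched on both strands, GGGGCGGGG of the SP and KLF families was in 16 of the 55, against 16.0% of all windows and 27.8% of those of other expressed genes, and CCGGAAG of the ETS family in 11 (10.7% against 24.0%). ACTACAA of ZNF143 and THAP11, which bind DNA with the co-regulator HCFC1, was in 5 (2.95% against 4.43%), and the 10-letter palindrome of NRF1 in 1 (1.36% against 2.91%).

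The RNA of factors that read CACGTG was counted in the same libraries. Their protein and activity were not measured, and what part they have in the falls was not tested. MYC fell to 207 ± 6.24 CPM with chidamide, against 307 ± 6.29 CPM with vehicle under the JeKo-1 label, and rose to 126 ± 2.98 CPM with chidamide, against 87.2 ± 0.884 CPM with vehicle in Granta-519 (SD, n = 3; edgeR quasi-likelihood test with Benjamini-Hochberg adjustment, adjusted p = 3.03e-21 and 4.34e-15). TFEB fell in both lines, to 85.0 ± 1.74 CPM with chidamide against 112 ± 4.26 CPM with vehicle under the JeKo-1 label, and to 65.6 ± 4.21 CPM against 101 ± 5.05 CPM in Granta-519 (SD, n = 3; edgeR adjusted p = 9.97e-13 and 1.62e-14). TFE3 rose under the JeKo-1 label, with a log2 change of 0.17 ± 0.07, and fell in Granta-519, with −0.29 ± 0.07 (SE; edgeR adjusted p = 0.0363 and 0.000214). MAX fell in both, by log2 changes of −0.31 ± 0.07 and −0.21 ± 0.06 (edgeR adjusted p = 4.58e-05 and 0.0031).

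The ratio of chidamide to vehicle ran from 0.284 to 0.499 under the JeKo-1 label, with a median of 0.438, and from 0.287 to 0.494 in Granta-519, with a median of 0.420. These values chose the genes and carry no test. The median over all 8160 expressed genes was 0.971 under the JeKo-1 label and 0.904 in Granta-519. For all 74 genes every chidamide library lay below every vehicle library in both lines, which 33.7% of the 8160 also did, so that nothing particular to the 74 can be read from it. A stricter reading sets the highest chidamide library against the lowest vehicle library, and by it 44 genes were halved under the JeKo-1 label, 50 in Granta-519 and 32 in both. Among vehicle libraries under the JeKo-1 label, replicate 2 was the highest library for 51 of the 74 genes, and without it 64 genes met the rule, all of them among the 74. In Granta-519, chidamide replicate 3 was the lowest library for 47 genes, and without it 69 met the rule.

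**Figure D1:**
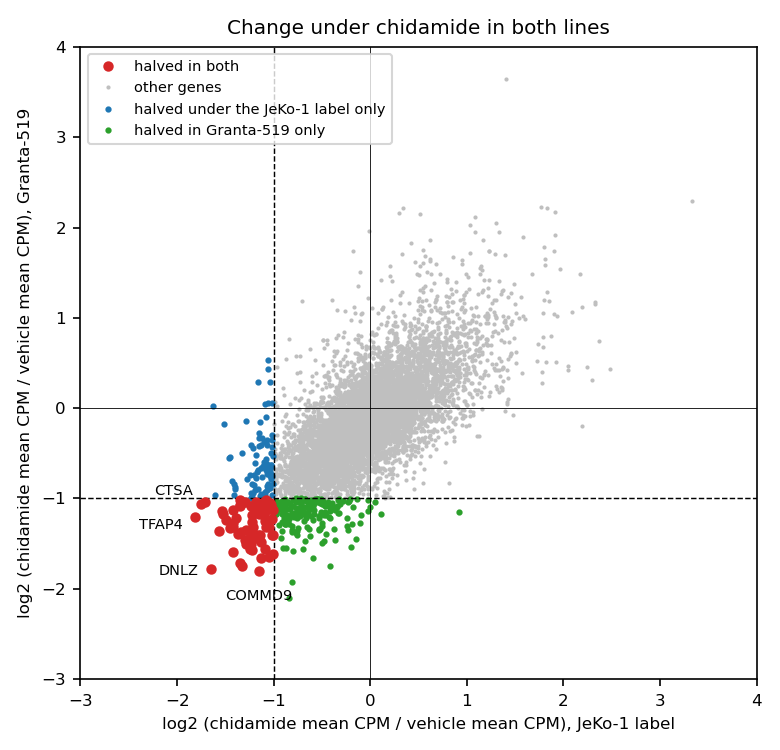
Ratio of mean CPM with chidamide to mean CPM with vehicle on a log2 scale, for the JeKo-1 label (x axis) and Granta-519 (y axis), for the 8160 expressed genes (points); dashed lines mark the ratio of 0.5. The 74 genes halved in both lines fill the lower left corner, and most genes halved in 1 line lie below 0 in the other.

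At the limit of the rule, CNPPD1 (0.499 under the JeKo-1 label and 0.378 in Granta-519), ENKD1 (0.498 and 0.456) and TSPAN17 (0.496 and 0.327) lay just inside. EEF2KMT (0.5005 and 0.455), IRAK1 (0.425 and 0.502) and MAF1 (0.502 and 0.461) lay just outside. EEF2KMT methylates the elongation factor eEF2, IRAK1 is the kinase of Toll-like and interleukin-1 receptors, and MAF1 is a repressor of RNA polymerase III. The ratios passed from inside to outside the limit without a gap.

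**Figure D2:**
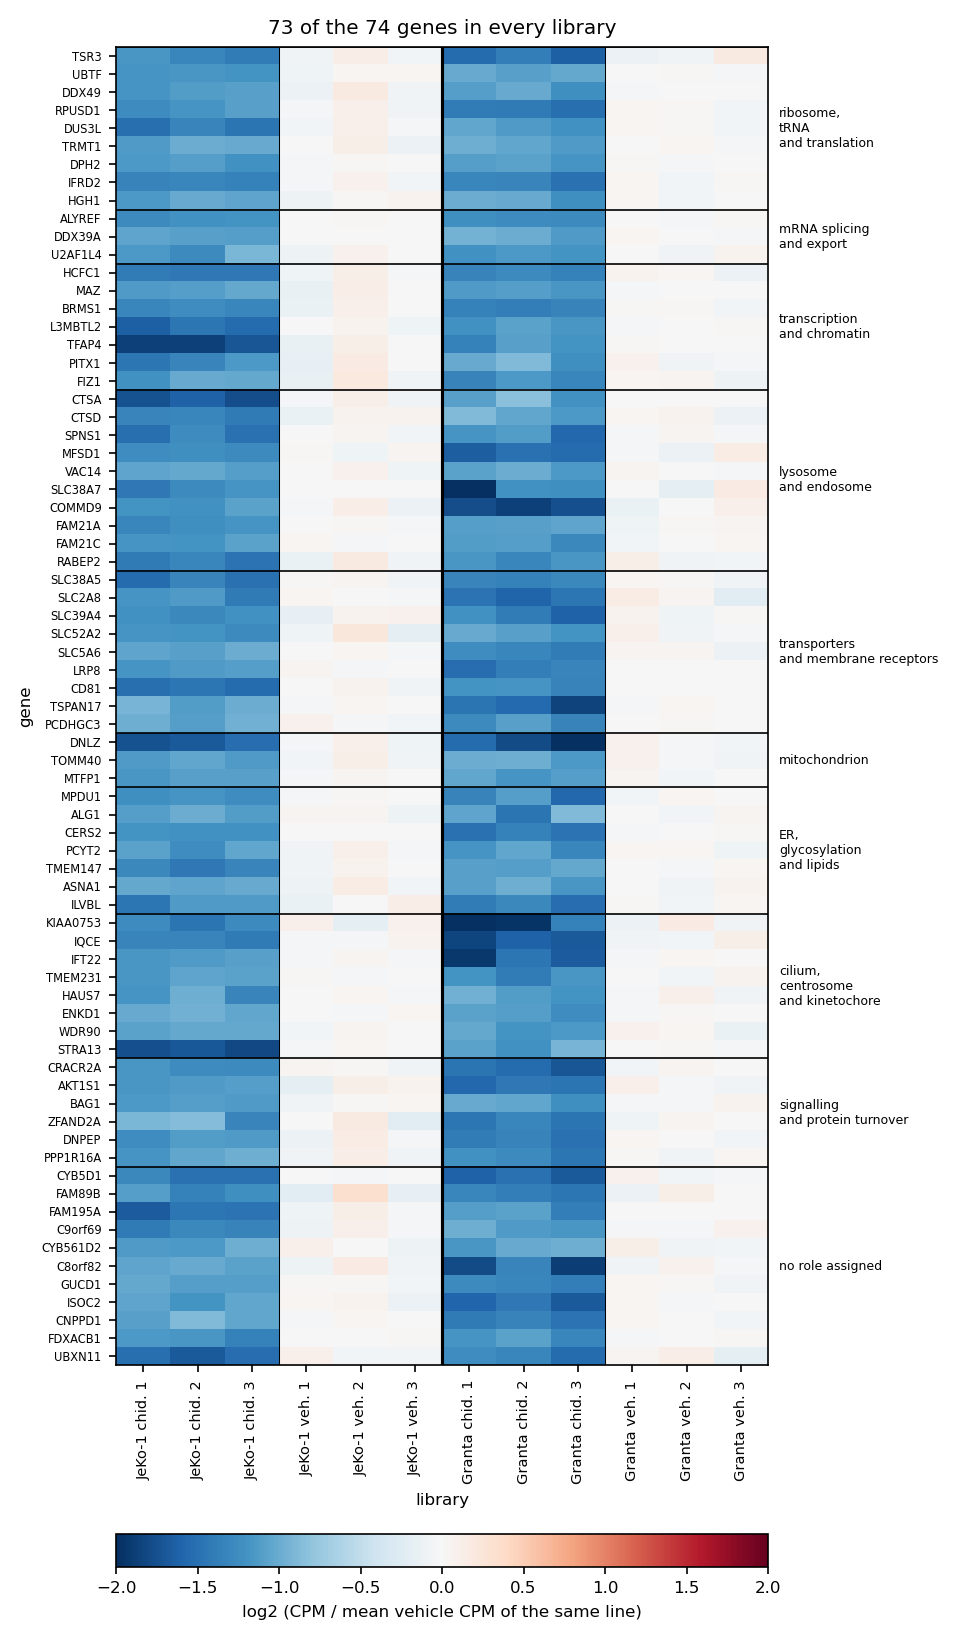
CPM of each of 73 of the 74 genes in each of the 12 libraries, as log2 of the ratio to the mean vehicle CPM of the same line (colour), with genes grouped by role. Chidamide libraries are blue throughout in both lines, JeKo-1 vehicle replicate 2 is slightly red in many genes, and TFAP4, CTSA and STRA13 are darker under the JeKo-1 label, whereas COMMD9 and KIAA0753 are darker in Granta-519.

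Ranked by the less affected line, the lowest ratios began with DNLZ, which encodes an escort that keeps the mitochondrial HSP70 soluble. DNLZ had 7.05, 7.32 and 8.22 CPM in chidamide libraries and 23.2, 25.3 and 22.1 CPM in vehicle libraries under the JeKo-1 label. It had 10.1, 8.53 and 7.03 CPM with chidamide and 31.2, 28.8 and 28.2 CPM with vehicle in Granta-519. The chidamide libraries stood at about the same low level in both lines, at ratios of 0.320 and 0.291, and no library came near the other group. UBXN11, a gene for a UBX-domain protein, had like ratios from unequal levels, with 18.1, 16.2 and 17.9 CPM in chidamide and 55.1, 49.9 and 49.6 CPM in vehicle libraries under the JeKo-1 label. Granta-519 libraries had 6.16, 5.95 and 5.01 CPM with chidamide and 15.1, 16.0 and 12.8 CPM with vehicle. CYB5D1, for a protein with a cytochrome b5 domain, had ratios of 0.373 under the JeKo-1 label and 0.331 in Granta-519.

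Genes were placed in groups by role with their falls and the CACGTG matches known, so the size of a group carries no test. Lysosomal and endosomal genes formed 1 of the 2 largest groups given a role, with 10 members. Their median ratios were 0.416 under the JeKo-1 label and 0.438 in Granta-519. The wider list for lysosome, autophagy and vesicle traffic, of 136 genes, held 3 of them, CTSA, CTSD and COMMD9. Other expressed genes were not placed in these groups, so no share of them stands beside the 10. CTSA, cathepsin A, also protects beta-galactosidase and neuraminidase inside the lysosome. It had 20.7, 22.5 and 20.1 CPM in chidamide and 66.9, 74.6 and 65.6 CPM in vehicle libraries under the JeKo-1 label, and 14.6, 17.4 and 13.4 CPM with chidamide and 31.0, 30.8 and 31.1 CPM with vehicle in Granta-519. The groups were well apart in both lines, at ratios of 0.306 and 0.488, and chidamide replicate 2 was the highest treated library in Granta-519. CTSD, the aspartic protease cathepsin D, had 27.1, 27.4 and 25.4 CPM with chidamide and 61.7, 71.0 and 71.0 CPM with vehicle under the JeKo-1 label. Granta-519 libraries had 30.4, 27.2 and 25.2 CPM with chidamide and 57.2, 58.7 and 51.6 CPM with vehicle. MFSD1, a dipeptide transporter of the lysosomal membrane, had a ratio of 0.423 under the JeKo-1 label and 0.340 in Granta-519. The Granta-519 values were 9.66, 10.8 and 10.4 CPM in chidamide and 29.4, 27.8 and 33.5 CPM in vehicle libraries. Under the JeKo-1 label it had 32.2, 32.6 and 31.6 CPM with chidamide and 76.9, 71.8 and 79.2 CPM with vehicle.

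SPNS1, which carries lysophospholipids out of the lysosome, stood at ratios of 0.375 under the JeKo-1 label and 0.413 in Granta-519. SLC38A7, a glutamine exporter of the lysosome, had 4.70, 5.22 and 5.61 CPM with chidamide and 12.6, 12.7 and 12.7 CPM with vehicle under the JeKo-1 label. In Granta-519 it had 3.50, 6.45 and 6.41 CPM with chidamide and 15.1, 13.1 and 16.7 CPM with vehicle, and the treated libraries were uneven, with replicate 1 the lowest. COMMD9, part of the Commander complex that returns receptors from endosomes to the surface, had 4.76, 4.45 and 4.80 CPM with chidamide and 14.8, 16.4 and 17.5 CPM with vehicle in Granta-519. Under the JeKo-1 label COMMD9 had 13.98, 13.8 and 15.2 CPM with chidamide and 31.1, 35.1 and 29.4 CPM with vehicle. VAC14, the scaffold of the lipid kinase PIKfyve, had ratios of 0.479 and 0.475, and RABEP2, a partner of endosomal RAB proteins, of 0.380 and 0.432. FAM21A and FAM21C, near-identical copies that encode the same subunit of the actin-regulating WASH complex, had ratios of 0.425 and 0.451 under the JeKo-1 label and of 0.473 and 0.444 in Granta-519. Reads of such copies may be split between them by the counting, so these 2 are uncertain and may be 1 signal.

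**Figure D3:**
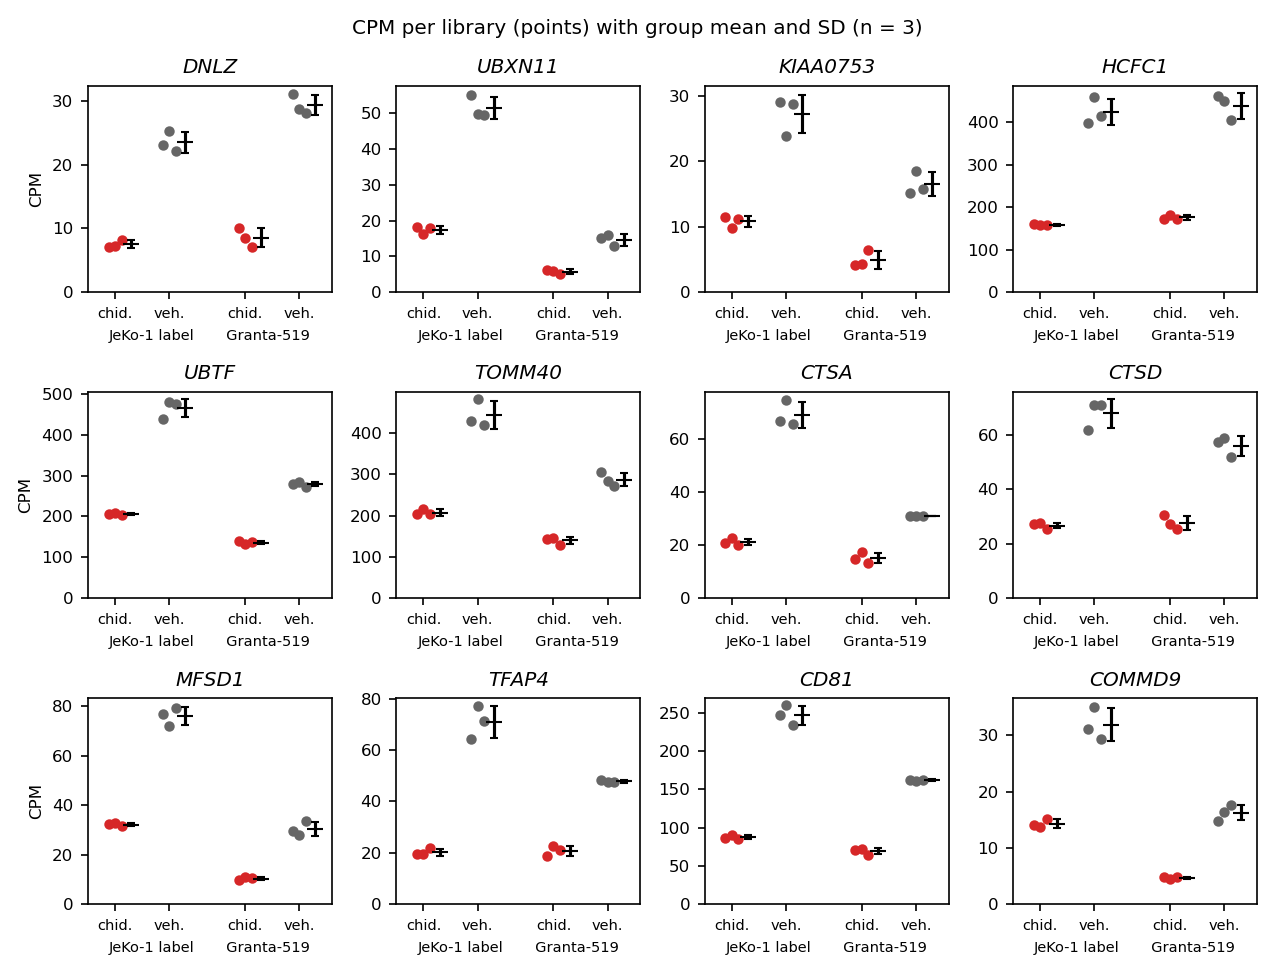
CPM of 12 of the genes in each library (points; chidamide red, vehicle grey) with the group mean and SD (n = 3), for the JeKo-1 label and Granta-519. In each gene the chidamide libraries of a line lie below its vehicle libraries, and untreated levels differ between lines in most, such as UBXN11 and CTSA.

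The group for ribosome assembly, tRNA and translation also had 10 members, with median ratios of 0.442 under the JeKo-1 label and 0.460 in Granta-519. UBTF, the architectural factor that holds ribosomal DNA open for RNA polymerase I, had 206, 208 and 203 CPM in chidamide and 440.0, 480.2 and 476 CPM in vehicle libraries under the JeKo-1 label. It had 139, 132 and 137 CPM with chidamide and 280.4, 284 and 273 CPM with vehicle in Granta-519. Its replicates lay close together, so the differences were many times the spread in both lines. TSR3, which adds an aminocarboxypropyl group to ribosomal RNA, had 28.9 ± 2.35 CPM with chidamide and 70.6 ± 5.59 CPM with vehicle under the JeKo-1 label, and 20.4 ± 1.78 CPM and 58.2 ± 6.54 CPM in Granta-519 (SD, n = 3). The nucleolar RNA helicase gene DDX49 had ratios of 0.457 and 0.464.

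Within that group 3 genes came from the list of tRNA and rRNA modification and tRNA synthetases. DUS3L, which makes dihydrouridine, had 28.6, 32.6 and 29.4 CPM in chidamide and 78.0, 86.6 and 78.6 CPM in vehicle libraries under the JeKo-1 label. The values in Granta-519 were 46.2, 43.2 and 40.7 CPM with chidamide and 97.3, 95.8 and 90.8 CPM with vehicle, a larger ratio. TRMT1, a guanosine dimethyltransferase, had ratios of 0.485 and 0.484, and RPUSD1, a predicted pseudouridine synthase, of 0.443 and 0.369. DPH2, which helps to build the diphthamide residue of the elongation factor eEF2, had 0.449 and 0.461. HGH1, known in yeast to help eEF2 fold, had 0.477 and 0.476, and IFRD2, found on inactive ribosomes in rabbit, had 0.397 and 0.387.

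Among 7 genes of transcription and chromatin, HCFC1 and MAZ were among the 6 genes of the list with the highest vehicle CPM, a level that also grows with transcript length. HCFC1 encodes host cell factor, a scaffold that brings histone methyltransferases and the SIN3 deacetylase complex to promoters. It had 161, 157 and 158 CPM in chidamide and 399.5, 459.6 and 415 CPM in vehicle libraries under the JeKo-1 label, and 174, 183 and 173 CPM with chidamide and 463, 451 and 405 CPM with vehicle in Granta-519. Both lines started from and reached like levels. MAZ, a zinc finger factor of GC-rich promoters, had 226, 232 and 243 CPM with chidamide and 446, 545 and 494 CPM with vehicle under the JeKo-1 label. In Granta-519 it had 218, 222 and 214 CPM with chidamide and 472, 481 and 484 CPM with vehicle. BRMS1, a subunit of the SIN3 deacetylase complex, had ratios of 0.411 and 0.392, and L3MBTL2, of a noncanonical Polycomb complex, of 0.344 and 0.453.

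TFAP4, a transcription factor gene that MYC is known to induce, had the lowest ratio of all 74 under the JeKo-1 label. It had 19.5, 19.3 and 21.7 CPM in chidamide and 64.2, 77.05 and 71.3 CPM in vehicle libraries there. In Granta-519 it had 18.8, 22.5 and 21.0 CPM with chidamide and 48.4, 47.4 and 47.6 CPM with vehicle. PITX1, a homeobox gene, had ratios of 0.406 and 0.488, and FIZ1, a zinc finger gene, of 0.472 and 0.417. Of 3 genes for mRNA splicing and export, ALYREF, the adaptor that hands mRNA to the exporter, had 0.428 and 0.419. DDX39A, a helicase gene of mRNA export, had 0.473 and 0.494. U2AF1L4, a relative of the splicing factor U2AF1, had 0.465 and 0.440.

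Membrane carriers and receptors gave 9 genes. CD81, a tetraspanin of the B-cell surface, was the member from the list of B-cell receptor signalling. It had 86.6, 90.3 and 85.3 CPM in chidamide and 247, 259.7 and 234 CPM in vehicle libraries under the JeKo-1 label, and 70.9, 71.7 and 64.3 CPM with chidamide and 163, 161 and 162 CPM with vehicle in Granta-519. The treated groups of the 2 lines reached nearer levels than the untreated ones. SLC38A5, a carrier of glutamine and other neutral amino acids, had 28.99, 33.7 and 29.8 CPM with chidamide and 85.7, 86.9 and 79.7 CPM with vehicle under the JeKo-1 label. In Granta-519 it had 25.5, 24.9 and 26.1 CPM with chidamide and 65.3, 65.1 and 60.8 CPM with vehicle. Other nutrient carriers in the list were SLC2A8 (glucose; ratios 0.425 and 0.352), SLC39A4 (zinc; 0.425 and 0.379), SLC5A6 (biotin and pantothenate; 0.485 and 0.403) and SLC52A2 (riboflavin; 0.430 and 0.468). LRP8, a lipoprotein receptor that binds apolipoprotein E, had 0.454 and 0.379. PCDHGC3, a protocadherin gene whose last exons are shared with its cluster and whose reads may therefore be shared too, had 0.495 and 0.427.

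Mitochondrial genes were 3, with DNLZ among them. TOMM40 encodes the channel through which proteins enter the organelle. TOMM40 had 203, 216 and 203 CPM in chidamide and 428, 482 and 420.2 CPM in vehicle libraries under the JeKo-1 label, and 144, 146 and 129 CPM with chidamide and 304, 283 and 273 CPM with vehicle in Granta-519. MTFP1, which acts in fission of the organelle, had ratios of 0.464 and 0.464. The 7 genes of the endoplasmic reticulum, glycosylation and lipids had ratios of 0.394 to 0.490 under the JeKo-1 label and 0.368 to 0.477 in Granta-519. They included MPDU1 (0.431 and 0.401) and ALG1 (0.478 and 0.462), which act in building the sugar chain on dolichol. CERS2 (0.433 and 0.368) makes ceramides with very long chains, and PCYT2 (0.461 and 0.443) acts in phosphatidylethanolamine synthesis. TMEM147, ASNA1, which inserts tail-anchored proteins into the membrane, and ILVBL were the others.

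Among 8 genes of cilium, centrosome and kinetochore, KIAA0753, a component of centriolar satellites, had 11.4, 9.85 and 11.2 CPM in chidamide and 29.02, 23.8 and 28.7 CPM in vehicle libraries under the JeKo-1 label. The Granta-519 libraries had 4.06, 4.23 and 6.47 CPM with chidamide and 15.1, 18.5 and 15.8 CPM with vehicle, and replicate 3 was the highest treated library. IQCE, a ciliary protein gene, had ratios of 0.393 and 0.306, IFT22, of intraflagellar transport, of 0.458 and 0.316, and TMEM231, of the ciliary transition zone, of 0.469 and 0.420. HAUS7, of the augmin complex that branches spindle microtubules, had 0.451 and 0.470. STRA13 had 23.0, 24.1 and 22.3 CPM with chidamide and 75.4, 80.2 and 78.1 CPM with vehicle under the JeKo-1 label. In Granta-519 it had 31.9, 28.97 and 35.2 CPM with chidamide and 67.0, 67.6 and 65.9 CPM with vehicle. The symbol STRA13 has been used for more than 1 gene and had no single match in RefSeq, so its place in this group, and in the list of DNA repair, is uncertain. Of 6 genes of signalling and protein turnover, AKT1S1, an inhibitory subunit of mTORC1, had 0.456 and 0.358, BAG1, an exchange factor of HSP70, 0.458 and 0.470, and CRACR2A, a calcium sensor of store-operated channels, 0.427 and 0.337. ZFAND2A, DNPEP and PPP1R16A completed that group. Beside CYB5D1, UBXN11 and CNPPD1, 8 genes were given no role: FAM89B, FAM195A, C9orf69, CYB561D2, C8orf82, GUCD1, ISOC2 and FDXACB1.

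Which line had the smaller ratio for most of the genes depended on the scaling. In CPM, ratios were smaller under the JeKo-1 label for 28 genes and in Granta-519 for 46, whereas in the TMM-scaled edgeR fit these counts were 45 and 29. The log2 ratio under the JeKo-1 label minus that in Granta-519 ran from −0.69 to 0.65 in CPM, with a median of 0.05, and from −0.83 to 0.51 in the TMM-scaled fit, with a median of −0.09. In CPM it was lowest for STRA13 (−0.69), CTSA (−0.67), TFAP4 (−0.61) and L3MBTL2 (−0.40), with smaller ratios under the JeKo-1 label. It was highest for COMMD9 (0.65), TSPAN17 (0.60), C8orf82 (0.60) and IFT22 (0.54), with smaller ratios in Granta-519. TSPAN17, a tetraspanin gene, had 13.9, 12.2 and 13.4 CPM in chidamide and 25.8, 27.3 and 26.6 CPM in vehicle libraries under the JeKo-1 label, and 7.28, 6.88 and 5.57 CPM with chidamide and 19.6, 20.6 and 20.2 CPM with vehicle in Granta-519. Both falls entered the rule, so these differences were not tested.

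Whether a gene halved in one line also fell in the other can be tested with limits. The lines share no library, and each list of genes halved in 1 line was made without the ratio in the second line. Both lists hold the 74, though, whose falls in both lines entered the rule. The listed genes also had to reach 10 CPM in the vehicle libraries of both lines, as did the 8160 genes set beside them. All 12 libraries also shared 1 fit. Of the 158 genes halved under the JeKo-1 label, 147 were lower in Granta-519 after chidamide, 4 were higher and 7 did not pass (edgeR quasi-likelihood test with Benjamini-Hochberg adjustment over 15087 tested genes). That is 93.0% lower, against 49.7% of all 8160 expressed genes, with a median log2 change of −0.96 against −0.14. Of the 261 genes halved in Granta-519, 255 were lower under the JeKo-1 label, 1 was higher and 5 did not pass. That is 97.7% lower, against 52.4% of the 8160, with a median of −0.93 against −0.17. Without the 74, the 84 genes halved only under the JeKo-1 label had a median CPM ratio of 0.635 in Granta-519, against 0.904 over the 8160. The 187 halved only in Granta-519 had a median of 0.637 under the JeKo-1 label, against 0.971. Leaving out the 74 keeps only genes not halved in the second line, so these medians carry no test. Over all 15087 tested genes, 31.1% were called lower and 35.3% higher under the JeKo-1 label, and 31.3% lower and 39.6% higher in Granta-519. Of all calls under the JeKo-1 label 53.1% were higher ones, a share that was 64.9% with upper-quartile scaling, 63.7% with library-size scaling and 63.6% with the deposited length-scaled score. In Granta-519 the share was 55.8%, against 64.0% with upper-quartile scaling, 49.9% with no count filter and 49.3% when only the groups compared were fitted.

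The genes that went the other way in the second line were few. HSPA1A and HSPA1B, near-identical genes of the inducible heat shock protein HSP70 whose reads may be shared, were halved under the JeKo-1 label, and HSPA1A had a mean of 20.1 CPM with chidamide and 13.9 CPM with vehicle in Granta-519 (log2 change 0.54 ± 0.14, SE; edgeR adjusted p = 0.00215). PVRIG, an inhibitory receptor gene of lymphocytes, changed by 0.29 ± 0.11 in Granta-519 (edgeR adjusted p = 0.0129), and SLCO4A1, an organic anion carrier gene, by 0.29 ± 0.08 (edgeR adjusted p = 0.000723). SECISBP2L was halved in Granta-519 and had a mean of 38.7 CPM with chidamide and 20.5 CPM with vehicle under the JeKo-1 label (log2 change 0.79 ± 0.08; edgeR adjusted p = 1.57e-12). These 5 genes were singled out after their values were seen.

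Untreated levels of the 74 genes differed between the lines in most cases, as did those of most expressed genes. The differences were more often in favour of the JeKo-1 label. In vehicle libraries 48 genes were higher under the JeKo-1 label than in Granta-519, 10 were lower and 16 did not pass (edgeR quasi-likelihood test with Benjamini-Hochberg adjustment over 15087 genes). Of all tested genes 35.5% were higher under the JeKo-1 label and 44.3% in Granta-519, and of the 8160 expressed genes 48.8% and 34.1%. The 74 had a median log2 difference of 0.37, JeKo-1 label over Granta-519, against 0.12 over the 8160. Library-size scaling gave 41 higher and 17 lower genes. The vehicle libraries also entered the rule, through the level of 10 CPM and as denominators, in both lines. The vehicle comparison is therefore not independent of how the genes were chosen.

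UBXN11 was the most uneven, with 51.5 ± 3.101 CPM under the JeKo-1 label and 14.6 ± 1.67 CPM in Granta-519 in vehicle libraries (SD, n = 3), a log2 difference of 1.95 ± 0.09 (SE; edgeR adjusted p = 1.25e-27). MFSD1 (1.47 ± 0.07), CYB5D1 (1.40 ± 0.09) and CTSA (1.29 ± 0.08) followed, each with an edgeR adjusted p of 2.47e-20 or lower. In the other direction, ENKD1, a gene of a microtubule-binding protein, had 12.1 ± 0.304 CPM under the JeKo-1 label and 27.0 ± 0.466 CPM in Granta-519 (−1.02 ± 0.10; edgeR adjusted p = 4.55e-14). DPH2 (−0.50 ± 0.05), FAM89B (−0.44 ± 0.10) and DDX39A (−0.43 ± 0.04) were next, with edgeR adjusted p-values of 6.42e-05 or lower. HCFC1, at 0.09 ± 0.05, did not pass (edgeR adjusted p = 0.0748), nor did DNLZ, at −0.18 ± 0.09 (edgeR adjusted p = 0.0644).

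**Figure D4:**
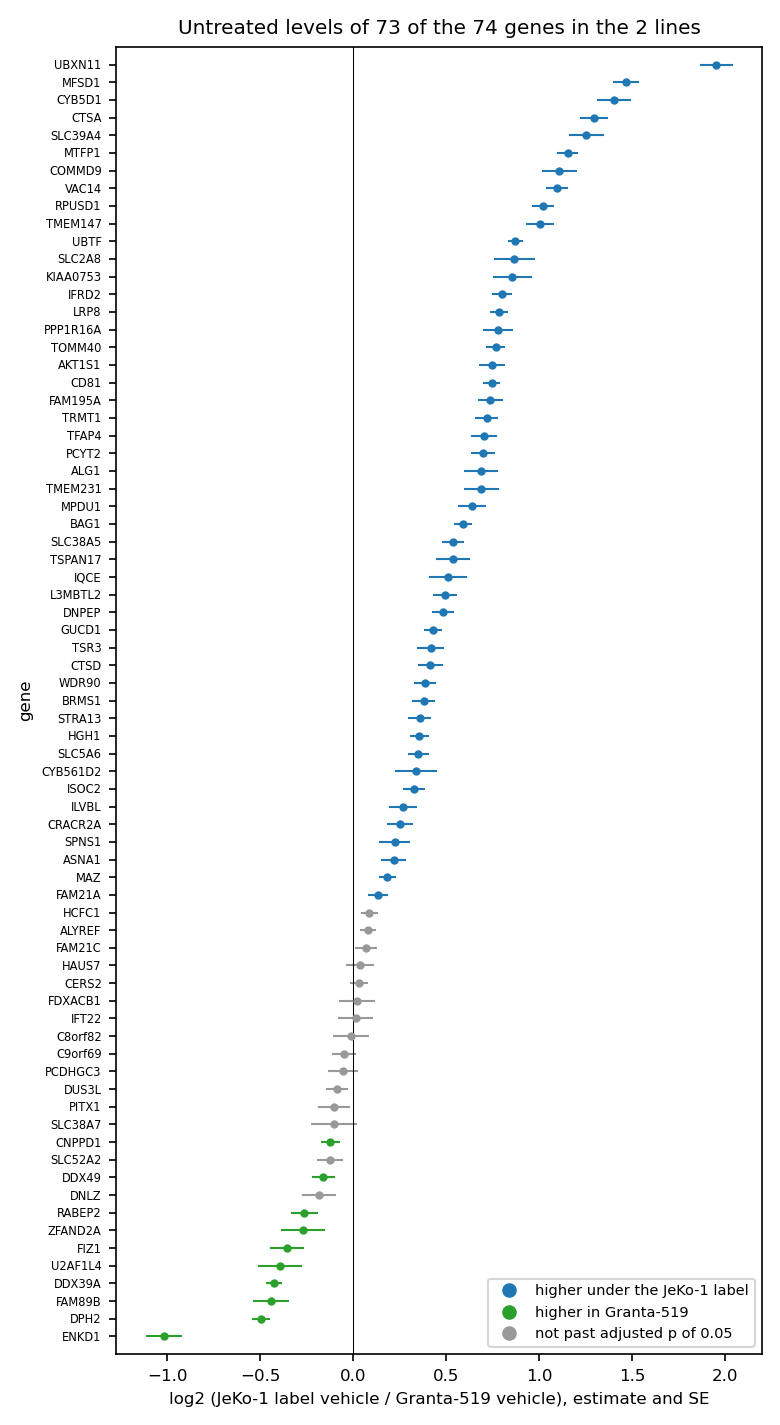
Difference in untreated level between the lines for each of 73 of the 74 genes, as log2 of the JeKo-1 label over Granta-519 in vehicle libraries (x axis; points are edgeR estimates, bars their SE; colour shows the call at an adjusted p of 0.05). UBXN11 lies at the top with 1.95 and ENKD1 at the bottom with −1.02, and 48 genes are coloured as higher under the JeKo-1 label.

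The pathways of these genes were read from 15 lists, which held 23 of the 74 genes, and the counts that follow leave those 23 out. Of 154 tested genes of ribosome assembly and RNA polymerases I and III, 135 were lower and 9 higher under the JeKo-1 label, and 110 lower and 12 higher in Granta-519 (edgeR adjusted over all genes). Of all tested genes 31.1% and 31.3% were lower, and of the 8160 expressed genes 52.4% and 49.7%, so a list with about that share lower does not stand apart. The ribosome assembly genes had median log2 changes of −0.58 and −0.31, against 0.04 and 0.08 over all tested genes and −0.17 and −0.14 over the expressed genes. Of 53 genes of mitochondrial import and carriers, 42 were lower and 2 higher under the JeKo-1 label, and 40 and 5 in Granta-519. Of 114 genes of tRNA and rRNA modification and tRNA synthetases, 77 were lower and 18 higher under the JeKo-1 label, and 68 and 17 in Granta-519. Of 80 MYC targets and partners, 69 were lower and 6 higher under the JeKo-1 label, and 56 and 15 in Granta-519.

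The lists closest to the lysosomal and ciliary members moved less uniformly. Of 129 genes of lysosome, autophagy and vesicle traffic, 69 were lower and 35 higher under the JeKo-1 label, and 79 and 24 in Granta-519, with medians of −0.22 and −0.29. Among them LAMP1, a major protein of the lysosomal membrane, came near the threshold, with ratios of 0.549 and 0.528. Of 112 genes of centrosome, cilium and spindle, 45 were lower and 34 higher under the JeKo-1 label, and 56 and 25 in Granta-519. The list around CD81 went the other way in Granta-519, where of 88 genes of B-cell receptor signalling and B-cell transcription factors 18 were lower and 56 higher. Under the JeKo-1 label 33 of these were lower and 41 higher. Of 128 chromatin regulators 71 were lower and 30 higher under the JeKo-1 label, and 65 and 26 in Granta-519. No member came from the lists of oxidative phosphorylation (69 of 117 lower under the JeKo-1 label and 81 in Granta-519), DNA replication (47 and 41 of 68), mitochondrial translation (87 and 78 of 114), or nucleotide and amino acid metabolism (77 and 71 of 121). The 74 were 0.907% of the expressed genes, so a list of this size with 0 members does not stand apart. In DNA repair 65 and 67 of 136 were lower, in glycosylation and sugar metabolism 68 and 67 of 122, and in lipid and sterol synthesis 40 and 33 of 86.

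In structure, which the rule did not use, the 74 genes were mostly shorter and richer in GC than other expressed genes. By GENCODE 29 (GRCh38), 72 of them had a coding transcript, whose GC content had a median of 59.2% for the longest such transcript, against 47.9% for 7828 other expressed genes. The interquartile ranges, 56.3% to 64.4% and 41.6% to 56.1%, did not overlap. The gene's span in the genome had a median of 10990 bases, against 33380 bases for the others, and the transcript a median of 2474 bases, against 3528. When the expressed genes were ranked by transcript GC and divided into 5 groups of 1580 genes, 44 of the 72 lay in the group with the highest GC, 18 in the next, 8 in the middle one, 2 in the one after it and 0 in the lowest. By span, 38 lay in the group of shortest genes and 3 in that of the longest.

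Transcript GC and gene span also went with the change of all genes. The median log2 ratio of the highest GC group was −0.35 under the JeKo-1 label and −0.37 in Granta-519, and that of the lowest was 0.17 and 0.02. The shortest genes had medians of −0.25 and −0.34, and the longest 0.18 and 0.05. Set against the median of genes of like GC in the same line, the 72 stood at a median of 0.521 under the JeKo-1 label and 0.515 in Granta-519, and none above 0.637. By that reading 16 of them had a ratio of 0.5 or less in both lines. Set against genes of like span, the medians were 0.505 and 0.490. Both readings divide the ratios that chose the genes by another median, so they were bound to stay low and carry no test. The GC content of the reads was not measured here, and what part it has in the falls was not tested.

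**Figure D5:**
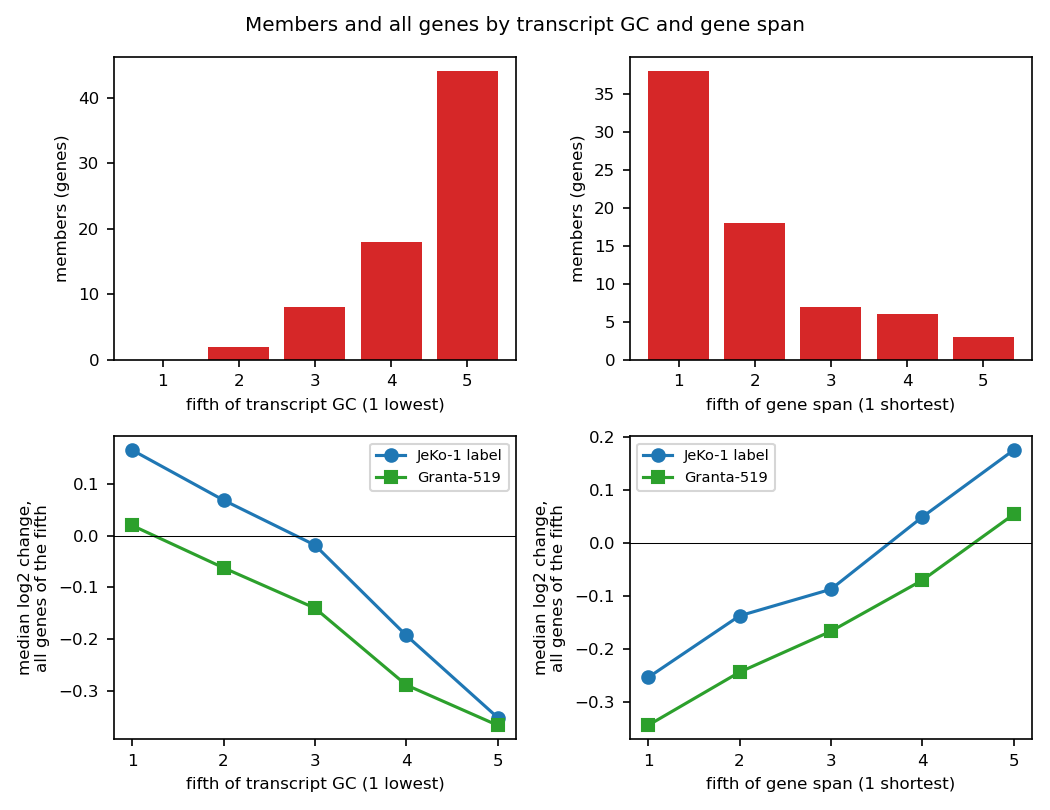
Upper panels show how many of the 72 genes with a coding transcript fall in each of 5 equal groups of the expressed genes by transcript GC (left) or gene span (right), and lower panels the median log2 ratio of chidamide to vehicle over all genes of the group in each line. Members reach 44 in the highest GC group, where the medians of all genes are lowest in both lines.

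The genes were spread unevenly over chromosomes, by the gene table of RefSeq (GRCh38.p14), which placed 72 of them. Chromosome 16 held 13, or 18.1% of the 72, against 5.14% of 7896 expressed genes placed. Chromosome 19 held 12, or 16.7% against 6.98%. These shares were not compared within genes of like transcript GC or gene span. Chromosomes 4, 6, 13, 14, 15, 18 and 21 held 0, against 3.46%, 5.22%, 1.79%, 3.41%, 3.23%, 1.34% and 1.01% of the expressed genes placed. With 72 genes, a 0 at the smaller of these shares does not stand apart. FAM195A and WDR90 on chromosome 16 were next to each other among coding genes, and without a stated strand setting overlapping reads of neighbours cannot be told apart. ALYREF and PCYT2 on chromosome 17 had 1 coding gene between them, and RABEP2 and SPNS1 on chromosome 16 had 2.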

How the data were processed

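Polyadenylated RNA of 12 libraries was measured. Whole-number read counts by gene symbol come from a table that the authors deposited. STAR and hg19 are named in the submitters' processing notes. Versions, counter, annotation and strand setting are not given in the sources used here. Another table, deposited by the authors as TPM, holds a length-scaled score, since its columns do not share a total; it served only as an alternative. Groups and replicate numbers came from the titles, and columns were matched by name. CPM used column sums. All 12 libraries entered 1 fit of 4 group means in edgeR 4.0.16 (R 4.3.3): filterByExpr, TMM, robust glmQLFit with 8 residual degrees of freedom and glmQLFTest, adjusted by Benjamini-Hochberg over 15087 genes with a threshold of 0.05; the SE of a log2 change is its size over the root of F. The common biological coefficient of variation was 0.0422, and the steps were tested on simulated data. Members, lists and roles were chosen with earlier results of these data known. The genes named with values were, beside those in the 15 lists: the 12 with the smallest larger ratio, the 6 with the highest vehicle CPM, the 4 at each end of the differences between lines (in ratio and in vehicle level) and 3 on each side of the threshold. Other members are named for completeness, and 1 of the 74 is counted but not reported here by name. Of the 74, RefSeq matched 72, of which 5 by an older symbol. Alternatives used DESeq2 1.42.0, limma 3.58.1 on log2(score + 0.05), other scalings, no count filter, only the groups compared, and each library left out.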

Additional observations from a re-analysis of the deposited data

How the results depend on the processing

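The number of genes that met the rule, 74, became 8 at a ratio of 0.4 or less, 278 at 0.6 or less and 32 with the highest chidamide set against the lowest vehicle library. Ratios set against genes of like transcript GC gave 16, all among the 74, and like gene span 28, of which 23 were among the 74; both were added after seeing the data. TMM-scaled library sizes gave 110, of which 73 were among the 74, vehicle levels of 5 and 20 CPM 78 and 59, group medians 67 and the length-scaled score 74. Leaving out 1 library gave 64 to 82. TMM and library-size scaling set the median log2 change of all tested genes at 0.044 and 0.175 under the JeKo-1 label, a shift that all ratios share. Members higher in Granta-519 vehicle were 17, not 10, with library-size scaling and with the score, and 7 to 14 when 1 library was left out. In a comparison added after seeing the data, the TMM-scaled fit gave 45 members with the smaller ratio under the JeKo-1 label and 29 in Granta-519, not 28 and 46, and a median difference of −0.087, not 0.051. CERS2, at 0.03 without passing in the vehicle comparison, was reversed with library-size scaling (−0.105) and the score (−0.11), past the threshold in both. The cause of these changes was not tested. Between same-numbered chidamide and vehicle libraries, deviations from the group means had r from −0.03 to 0.25. Between differently numbered ones r ran from −0.20 to 0.11. What the numbers mark is not stated, so whether they pair samples is not known. With the replicate as a block, 5341 genes were called higher and 4727 lower under the JeKo-1 label, against 5320 and 4696 without it. In Granta-519 these counts were 5960 and 4754, against 5970 and 4725. Members called in the vehicle comparison were 49 and 11, against 48 and 10. Depth limits the genes near 10 CPM most, where 47 counts was the fewest.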
